A study of Mus musculus with 12 samples.

Results

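The relation between open chromatin at the ends of a gene and the change of its RNA was described in mouse dorsal root ganglia, with genes compared only against genes of similar RNA level. Of 44345 genes in the count files, 16819 passed the filter on low counts, and 15380 of these lay on autosomes and had coordinates. Each was grouped by the deposited ATAC regions within 1000 bp of its 2 ends. The class with a region in both treatment lists held 13145 genes (85.5%), the class with a region in the MS275 list only held 312 (2.03%), the class with a region in the Vehicle list only held 548 (3.56%), and 1375 genes (8.94%) had a region in neither list. The classes were thus chosen by measured ATAC regions and their RNA level by the vehicle libraries, so class membership and level are descriptions here, and the RNA change between treatments is the quantity tested. For matching, the 15380 genes were divided by mean vehicle level into 10 bins of 1538 genes each, called level bins, with bin 1 the lowest. The bins share the vehicle libraries with the change that is tested.

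All mice were C57BL/6, 6 to 8 weeks old, and all, controls included, had a dorsal column axotomy, a cut of the spinal tract that holds the central branches of sensory neurons. The MS275 group received 12 mg/kg MS275 (entinostat), which blocks the class I group of histone deacetylases, into the peritoneal cavity at injury and again 2 h before collection. The vehicle group received 3.2% Tween80, 20% PEG300 and 4% DMSO by the same route and at the same times. L4 to L6 ganglia were taken 24 h after injury, with 3 RNA libraries per treatment, each a pool of 2 mice, and 3 ATAC libraries per treatment, each from 1 mouse. Only 1 list of open regions, combined over the replicates, represented each treatment, so the classes carry no replicate error. There was no uninjured group and no ganglion without injection, and the whole ganglion was measured, neurons together with glia, vessels and immune cells.

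Histone deacetylases remove acetyl groups from histone tails, which tightens the contact between DNA and nucleosomes, and inhibiting them raises acetylation. ATAC-seq inserts adapters where DNA is not covered by nucleosomes, which happens mostly at promoters and enhancers. An open promoter is common to most genes that a tissue transcribes, so accessibility and RNA level rise together across genes, and genes at low levels are also those whose measured change is least precise. A comparison of RNA change between accessibility classes can therefore be a comparison between levels unless the level is held fixed.

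The libraries held 34992533 to 60370523 reads assigned to genes. Sensory neuron markers were abundant in every library, summing to 28730.9 to 32963.3 CPM (reads scaled to a common library size) with all 18 measured. Of 6 markers of the central nervous system, Mog, Neurod6 and Olig2 were below the filter, and the 3 tested summed to 18.9 to 38.3 CPM. The first MS275 library stood apart from the other 5, at 40.25 on the first principal component against -23.26 to 14.13. The 17 skeletal muscle markers summed to 21.2 to 89.0 CPM in vehicle and to 865.5, 124.0 and 140.1 CPM in MS275 libraries 1, 2 and 3, and 12 of them rose at an edgeR adjusted p under 0.05, against 5.1% of all genes tested. The 12 neutrophil markers summed to 47.0 to 78.4 CPM in vehicle and to 294.9, 53.2 and 86.8 CPM in MS275 libraries 1, 2 and 3. In bulk tissue, fewer cells of a type and less RNA per cell cannot be told apart. The triplicates are described as biological, and the p-values measure the spread between these pools.

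Promoters of the genes that met the naming rule with the smallest p in each class and direction are printed here, from RefSeq on GRCm38.p6, as 250 bases before to 50 bases after the transcription start, 5′ to 3′ on the gene's strand, with CG dinucleotides in capitals. They show how the window at the annotated start relates to the class, which was set at the gene's outer ends. Ier3 (chr17:35821463-35821762, plus strand) and Suv420h1 (chr19:3767171-3767470, plus strand) come from the class open in both lists, and all 300 bases of each were covered in both lists. Fstl3 (chr10:79777024-79777323, plus strand) and Stab1 (chr14:31168592-31168891, minus strand) had a region in the MS275 list only. Smyd1 (chr6:71262232-71262531, minus strand) and Hnrnph1 (chr11:50376740-50377039, plus strand) had a region at their ends in the Vehicle list only. Ly86 (chr13:37345095-37345394, plus strand) and Zfp235 (chr7:24132122-24132421, plus strand) had none in either list.
Ier3: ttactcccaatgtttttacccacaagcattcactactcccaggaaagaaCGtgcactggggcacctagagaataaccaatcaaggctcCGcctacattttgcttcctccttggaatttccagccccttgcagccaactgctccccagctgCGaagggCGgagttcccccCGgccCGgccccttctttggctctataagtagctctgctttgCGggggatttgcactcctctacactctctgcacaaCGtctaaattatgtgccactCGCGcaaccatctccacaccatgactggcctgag
Suv420h1: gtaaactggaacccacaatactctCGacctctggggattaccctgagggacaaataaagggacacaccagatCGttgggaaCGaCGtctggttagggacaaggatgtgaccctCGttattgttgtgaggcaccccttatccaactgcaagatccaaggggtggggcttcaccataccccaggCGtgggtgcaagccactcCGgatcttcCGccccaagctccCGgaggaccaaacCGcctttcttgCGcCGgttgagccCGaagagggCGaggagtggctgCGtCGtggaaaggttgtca
Fstl3: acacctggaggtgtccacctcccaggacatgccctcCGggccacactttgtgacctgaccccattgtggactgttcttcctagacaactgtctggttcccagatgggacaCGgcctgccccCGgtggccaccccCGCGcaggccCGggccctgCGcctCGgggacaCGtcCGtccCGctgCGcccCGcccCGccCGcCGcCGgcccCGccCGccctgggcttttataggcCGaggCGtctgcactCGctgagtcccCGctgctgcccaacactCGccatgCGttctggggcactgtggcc
Stab1: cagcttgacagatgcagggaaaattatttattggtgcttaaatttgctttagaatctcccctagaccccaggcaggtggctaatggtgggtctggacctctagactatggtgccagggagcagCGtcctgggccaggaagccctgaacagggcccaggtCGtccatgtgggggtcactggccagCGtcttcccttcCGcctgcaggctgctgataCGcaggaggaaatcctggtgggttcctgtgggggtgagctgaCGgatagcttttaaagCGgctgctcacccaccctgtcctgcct
Smyd1: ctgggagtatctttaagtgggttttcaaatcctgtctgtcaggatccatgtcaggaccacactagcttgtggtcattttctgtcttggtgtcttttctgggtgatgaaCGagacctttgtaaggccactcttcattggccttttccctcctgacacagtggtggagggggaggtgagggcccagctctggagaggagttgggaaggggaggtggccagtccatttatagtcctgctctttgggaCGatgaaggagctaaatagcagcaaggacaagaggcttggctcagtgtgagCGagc
Hnrnph1: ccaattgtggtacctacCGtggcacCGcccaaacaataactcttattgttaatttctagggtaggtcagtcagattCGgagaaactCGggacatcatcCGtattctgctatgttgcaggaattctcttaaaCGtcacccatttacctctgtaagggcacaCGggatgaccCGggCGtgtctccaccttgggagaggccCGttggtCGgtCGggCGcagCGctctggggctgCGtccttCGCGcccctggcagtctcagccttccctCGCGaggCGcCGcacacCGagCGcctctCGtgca
Ly86: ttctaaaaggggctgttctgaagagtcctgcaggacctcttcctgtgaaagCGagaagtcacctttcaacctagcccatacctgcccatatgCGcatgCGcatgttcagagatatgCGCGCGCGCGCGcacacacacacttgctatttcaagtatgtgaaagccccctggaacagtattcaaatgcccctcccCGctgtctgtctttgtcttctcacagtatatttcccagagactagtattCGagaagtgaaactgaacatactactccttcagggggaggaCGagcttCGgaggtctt
Zfp235: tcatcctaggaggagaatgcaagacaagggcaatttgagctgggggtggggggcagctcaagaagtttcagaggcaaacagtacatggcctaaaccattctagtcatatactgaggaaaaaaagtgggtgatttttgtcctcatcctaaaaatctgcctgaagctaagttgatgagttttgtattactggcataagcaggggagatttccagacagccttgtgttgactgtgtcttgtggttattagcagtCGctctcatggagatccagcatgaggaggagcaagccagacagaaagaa

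The printed windows differed in CG content from 25 CG dinucleotides in Fstl3 and 24 in Hnrnph1 to 3 in Smyd1 and 1 in Zfp235. They also showed where the class and the promoter part ways. The Fstl3 region of the MS275 list covered 252 bases within 1000 bp of the gene's start but none of the printed window. In Stab1 the MS275 region covered 187 of the 300 bases, and in Smyd1 the Vehicle region covered all 300. The listed start of Hnrnph1 lay 1733 bp inside the outermost annotated end, and this window was open in both lists, by 300 bases in the MS275 list and 209 in the Vehicle list, although the gene's outer ends held a region in the Vehicle list only. Both strands were searched for 6 short motifs, none of which contains another. The TATA box, TATAAA, was found in Fstl3 and Smyd1, against 13.6% of the 32851 promoters in the table. The GC box, GGGCGG, was found in Ier3, Suv420h1, Fstl3 and Hnrnph1, against 35.7% of the table. The CCAAT motif was found in Ier3, Stab1, Smyd1 and Hnrnph1, against 37.4%. The 8 windows held no cAMP-response element (TGACGTCA, in 1.79% of the table), no AP-1 element with the letters TGANTCA (in 7.81%) and no E-box of the form CACGTG (in 7.15%). A comparison of promoter sequence between whole classes is void, because a promoter entry was found for 60.8% to 79.4% of a class, under the share needed in each.

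Genes without a region in both lists were mostly genes of low RNA level. The median vehicle level was 23 CPM in the class open in both lists, 2.24 CPM in the MS275 list only, 1.92 CPM in the Vehicle list only and 1.59 CPM in neither list. CPM is not divided by transcript length, so the level bins order genes by reads. In the lowest level bin, with vehicle levels of 0.038 to 0.635 CPM, 54.6% of genes were open in both lists and 29.6% in neither. In the highest level bin, from 138.0 CPM up, these shares were 95.0% and 2.67%. The shares of the one-list classes fell likewise, from 5.85% to 0.78% for the MS275 list and from 9.95% to 1.56% for the Vehicle list.

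**Figure D1:**
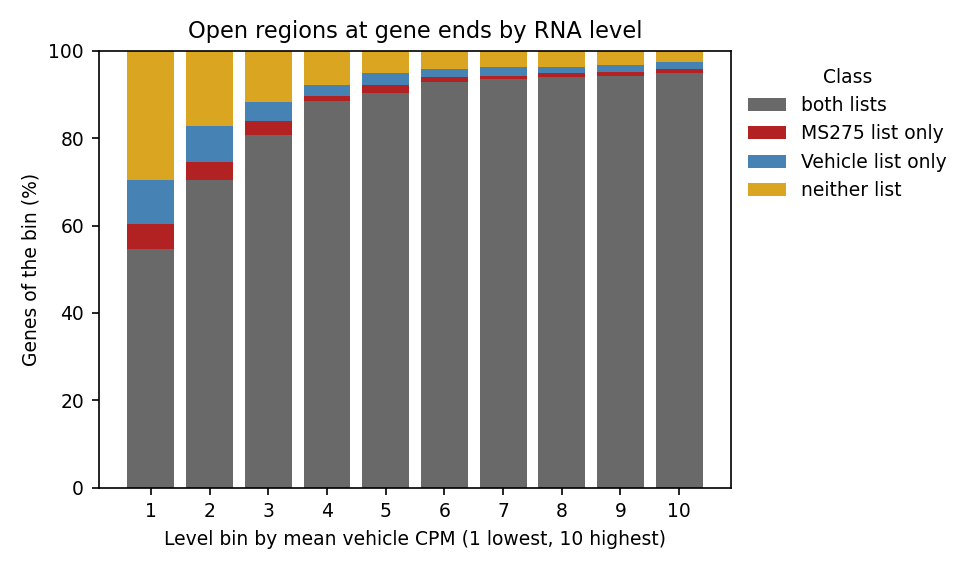
Stacked bars give the percentage of genes in each class (colour) for each of the 10 level bins, 1538 genes a bin. The share open in both lists climbs from 54.6% in the lowest level bin to 95.0% in the highest, and each of the other 3 classes is most frequent in the lowest level bin.

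The one-list regions were weak calls by the authors' own values. Per gene, the strongest region at the ends had a median -log10 q of 2.28 and a median fold enrichment of 1.75 in the MS275-only class, against 29.6 and 3.61 for the same list in the class open in both. In the Vehicle-only class the medians were 2.69 and 1.7, against 41.0 and 3.58. A q above 0.05 belonged to the best region of 21.8% of MS275-only genes and 12.2% of Vehicle-only genes. Beyond the ends the classes converged: with the whole gene and 1000 bp either side, 77.9% of MS275-only genes, 72.8% of Vehicle-only genes and 46.9% of neither-list genes had a region in both lists. Genes whose nearest region lay just inside the limit, at 900 to 1000 bp, numbered 75 and had a median log2 fold change of 0.048, with 4 risen and 5 fallen. The 66 genes just outside, at 1001 to 1100 bp, had a median of 0.038, with 5 risen and 5 fallen.

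RNA change itself varied with level. Centred on each gene's mean over the 6 libraries, the median gene of the lowest level bin stood at -0.092, -0.067 and -0.043 on the log2 scale in the vehicle libraries and at 0.213, 0.026 and 0.128 in the MS275 libraries. Every MS275 library was above every vehicle library, and the first was the highest. The difference was 0.19 in the lowest level bin, 0.10 in the next, -0.051 in bin 6 and 0.027 in the highest, where the groups overlapped. Without MS275 library 1 the first 2 of these values were 0.14 and 0.050, so that the second fell by more than 1.5 times. With bins taken from 1 vehicle library and the change from the other 2, the lowest bin gave 0.15 to 0.17. The filter on low counts used the libraries of both treatments, so genes of the lowest vehicle levels could pass it through their MS275 counts. A positive difference in the lowest level bin was thus partly set in advance, and the bins from 1 vehicle library kept the same filter. The muscle and neutrophil marker sums were also highest in MS275 library 1, and their part in this slope was not tested.

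**Figure D2:**
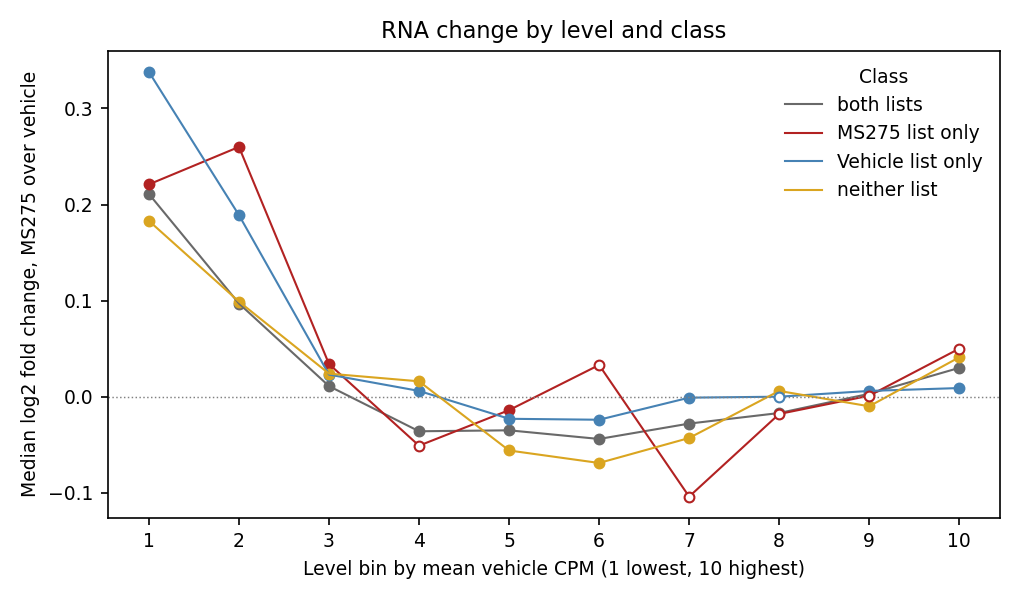
Points give the median log2 fold change (MS275 over vehicle) of each class in each bin of mean vehicle CPM, hollow where a class has fewer than 20 genes in the bin. All 4 classes run from medians of 0.183 to 0.338 in the lowest bin to values near 0 in the upper bins. Genes of the lowest bin could pass the filter through their MS275 counts, which favours positive values there.

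Without regard to level, genes lacking a region in 1 or both lists were higher after MS275 relative to genes open in both. For the MS275-only class, the median gene minus the median gene open in both lists was -0.035, -0.022 and -0.011 (log2) in the vehicle libraries and 0.082, 0.0026 and 0.0029 in the MS275 libraries, a difference of 0.052. The groups did not overlap, and the first MS275 library lay far above the other 2. For the Vehicle-only class the values were -0.025, -0.048 and -0.013 in vehicle and 0.070, 0.0075 and 0.035 in MS275, a difference of 0.066 with no overlap. For genes in neither list they were -0.021, -0.0081 and 0.0014 in vehicle and 0.039, 0.017 and 0.0035 in MS275, a difference of 0.029, again without overlap. Each had a two-sided exact permutation p of 0.1, the smallest that 3 against 3 libraries can give, and 0.225 after Benjamini-Hochberg adjustment over the 9 class differences computed. Leaving out MS275 library 1 lowered the MS275-only value to 0.020 and the Vehicle-only value to 0.043.

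Once genes were compared within level bins, the libraries of the 2 treatments overlapped for the MS275-only and neither-list classes. The MS275-only value, from 229 genes in the 4 level bins with at least 20 genes of both classes, was -0.037, -0.0071 and 0.0008 in the vehicle libraries. In the MS275 libraries it was 0.013, 0.0054 and -0.035. The groups overlapped and the difference was 0.0091, a ratio of 1.006 (two-sided exact permutation p = 0.5). For neither-list genes the value was -0.0009, 0.017 and 0.0053 in vehicle and -0.042, 0.045 and -0.014 in MS275. These groups overlapped as well, with a difference of -0.011 (two-sided exact permutation p = 0.7). A p of this size does not show that the classes behaved alike, and the design cannot pass 0.05. With means over genes in place of medians, the MS275-only difference within level bins was 0.062 (exact permutation p = 0.2). The Vehicle-only difference was then 0.063 (exact permutation p = 0.1), so the contrast between these classes depended on the use of medians.

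Among genes that passed the filter on low counts, the Vehicle-only class kept its difference within level bins. Over 530 genes in 9 level bins it stood at -0.016, -0.039 and -0.012 in the vehicle libraries and at 0.011, 0.057 and 0.037 in the MS275 libraries. All 3 MS275 libraries were above all 3 vehicle libraries, and the second MS275 library, not the first, was the highest. The difference was 0.057 on the log2 scale, or 4.0%, in favour of MS275 (two-sided exact permutation p = 0.1, the smallest possible, and 0.225 adjusted over the 9 differences). Its sign was thus that of higher RNA after MS275 at genes whose listed region was absent from the MS275 list. Leaving out each library in turn gave 0.045 to 0.066. With no filter on low counts beyond 1 count, it was -0.0025 (exact permutation p = 0.8). The 2 lowest level bins held 153 and 126 of the Vehicle-only genes, and there a gene could pass the filter through its MS275 counts. The filter thus selects in part on the change that is tested, and the difference holds only for the filtered genes.

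**Figure D3:**
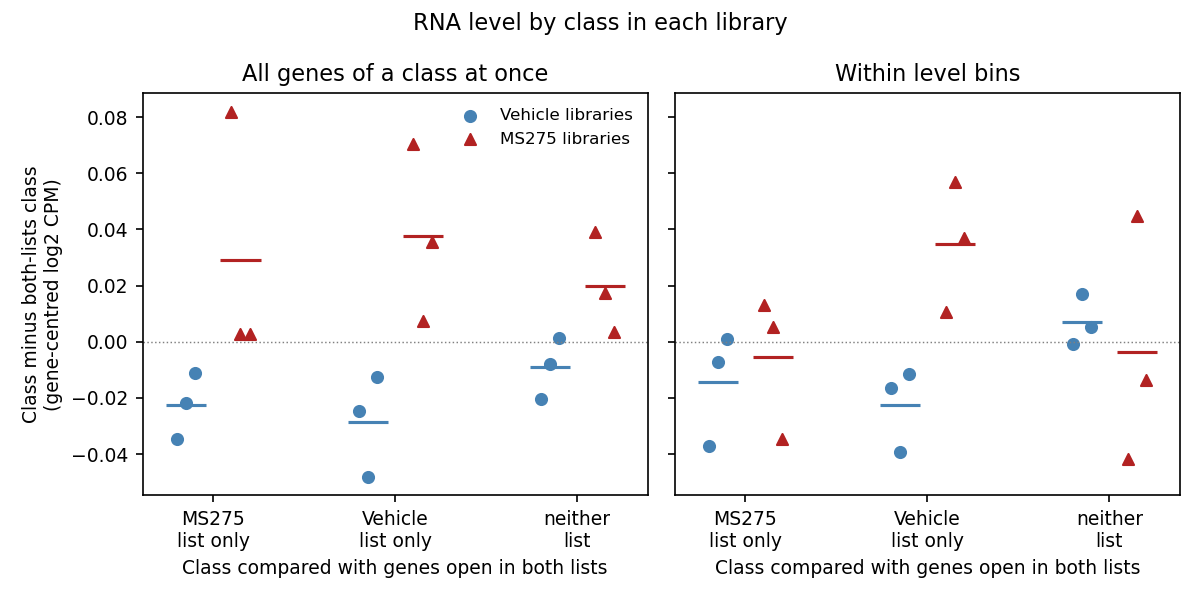
Each point is 1 RNA library (circles vehicle, triangles MS275, bars the means of 3) and gives the median gene-centred log2 CPM of a class minus that of genes open in both lists, over all genes (left) and within level bins (right). The groups are apart for all 3 classes at left and only for the Vehicle-only class at right, where the means are -0.022 and 0.035.

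In the direct comparison of the one-list classes, MS275-only genes were below Vehicle-only genes, with overlapping libraries. MS275-only minus Vehicle-only genes within level bins stood at -0.018, 0.044 and 0.014 in the vehicle libraries and at 0.0044, -0.072 and -0.081 in the MS275 libraries. The groups overlapped through MS275 library 1, and the difference was -0.063 (two-sided exact permutation p = 0.2, 0.3 adjusted). Not matched for level it was -0.015 (exact permutation p = 0.5). The value within level bins was below 0 in 31 of 34 other settings and in each run without 1 library, at -0.075 to -0.020. With only regions of -log10 q of at least 5, the sign turned and the value within level bins was 0.067 (exact permutation p = 0.1).

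The level bins did not move alike. In the lowest, the value of the 90 MS275-only genes against the 839 genes open in both was 0.022, 0.050 and 0.036 in the vehicle libraries and -0.034, -0.079 and -0.101 in the MS275 libraries, a difference of -0.11. In the next level bin, 62 MS275-only genes went from -0.143, -0.052 and -0.061 in vehicle to 0.049, 0.115 and 0.014 in MS275, a difference of 0.14. The groups did not overlap in either level bin, so on this measure opposite values lay behind the small overall one. The median edgeR log2 fold change did not show the opposite value of the lowest level bin. There it was 0.221 for MS275-only genes and 0.211 for genes open in both, and in the next level bin 0.26 and 0.097. The Vehicle-only class was above genes open in both in 7 of 9 level bins, with 0.10 from 153 genes in the lowest level bin and 0.084 from 126 in the next, and below in the 2 highest, at -0.035 and -0.026. The neither-list class was above in 4 level bins and below in 6, within -0.042 to 0.022.

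Within the class open in both lists, genes were also compared by which list covered more bases at their ends. The MS275 list covered more bases at the ends of 5084 genes and the Vehicle list at 8012. Within level bins, the first set minus the second was 0.0032, 0.0057 and -0.0002 in vehicle and -0.0031, 0.0027 and -0.0082 in MS275, with overlapping groups. The difference was -0.0058 (two-sided exact permutation p = 0.2, 0.3 adjusted). The shares that rose were 5.45% and 5.33%, and the shares that fell 6.96% and 6.57%.

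The value for the MS275-only class depended on how it was obtained. Across 34 other settings it ran from -0.029 to 0.156 within level bins and changed sign in 5. The highest came from regions with a -log10 q of at least 5 (exact permutation p = 0.1), and a 500 bp window gave 0.087, genes with a protein 0.061 and the set without MS275 library 3 0.058 (exact permutation p = 0.1 for each). The neither-list value changed sign in 12 of 34 settings, and with the strict q it was 0.064 (exact permutation p = 0.1). The Vehicle-only value was above 0 in 33 of 34 and ran up to 0.11, with the whole gene as window.

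**Figure D4:**
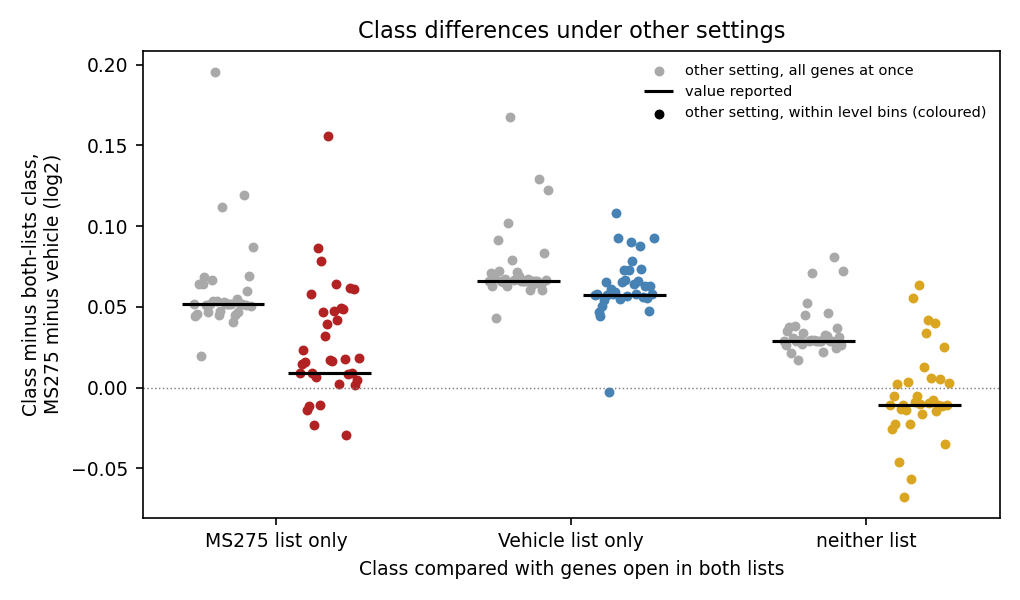
Each point is the difference between a class and genes open in both lists (MS275 minus vehicle, log2) under 1 of 34 other settings, grey over all genes and coloured within level bins, with a black bar at the value reported. Grey points of settings that changed only the level bins or added the replicate block equal the value reported by construction. Within level bins the MS275-only points span -0.029 to 0.156, the Vehicle-only points -0.0025 to 0.108 and the neither-list points -0.067 to 0.064.

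Gene by gene, MS275 raised 858 of the 16819 tested genes (5.1%) and lowered 991 (5.89%) at an edgeR adjusted p under 0.05. In the class open in both lists 705 rose (5.36%) and 890 fell (6.77%). In the MS275-only class 26 rose (8.33%) and 5 fell (1.6%). In the Vehicle-only class 23 rose (4.2%) and 13 fell (2.37%), and in neither list 64 rose (4.65%) and 40 fell (2.91%). Of the 818 classed genes that rose 86.2% were open in both lists, and of the 948 that fell 93.9%, beside 85.5% of all classed genes. Over all classes, 0.26% of the lowest level bin fell against 11.4% of bin 6. Low vehicle counts leave little room to call a fall in the lowest level bin, and its genes could pass the filter through their MS275 counts. Its small share of falls was thus partly set in advance.

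With the genes open in both lists weighted to the same level bins, 8.73% of MS275-only genes rose against 5.37%, and 1.31% fell against 2.87%. For the Vehicle-only class 4.34% rose against 5.36% and 2.26% fell against 3.95%. For neither list 4.65% rose against 5.34% and 2.91% fell against 3.96%. Genes are not replicates, so these shares carry no test. Not weighted to level bins, 8.33% of MS275-only genes rose against 5.36% of genes open in both, and without MS275 library 1 these shares were 6.41% (20 genes) and 5.89%. The Vehicle-only class, whose median gene moved up within level bins, thus had no larger share of called rises. Leaving out any single vehicle library left 127 to 336 genes risen and 134 to 392 fallen in all, so calls near the threshold rest on all 3.

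Among genes open in both lists, 604 risen and 834 fallen genes met the naming rule, and those of smallest p are given here. Ier3, an immediate early stress gene, had 24.6, 24.5 and 24.9 CPM in vehicle and 42.7, 40.8 and 39.1 CPM in MS275. The groups were far apart (log2 fold change 0.73 ± 0.05 SE, edgeR adjusted p = 0.000587). Rara, the retinoic acid receptor alpha, rose by a log2 fold change of 1.10 and Ehbp1l1 by 0.56. Suv420h1, a methyltransferase for lysine 20 of histone H4, had 34.2, 36.2 and 33.6 CPM in vehicle and 19.1, 19.0 and 18.4 CPM in MS275, all lower (log2 fold change -0.88 ± 0.06, edgeR adjusted p = 0.000576). The sirtuin deacetylase Sirt1 fell by 1.04 on the log2 scale, the nucleoporin Ahctf1 by 0.65 and the imprinted zinc-finger gene Peg3 by 0.55. Rara, Ehbp1l1, Suv420h1, Peg3 and Ahctf1 overlap other annotated genes, so their counts are uncertain where reads could be shared.

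In the MS275-only class, Fstl3, a secreted antagonist of activin, showed the smallest p. It had 8.99, 8.93 and 11.1 CPM in vehicle and 21.1, 18.9 and 20.3 CPM in MS275, with no overlap (log2 fold change 1.06 ± 0.10 SE, edgeR adjusted p = 0.00121). Synpo, which encodes the actin-associated protein synaptopodin, went from 45.3, 48.5 and 48.1 CPM to 64.6, 67.4 and 61.3 CPM (0.45 ± 0.05, edgeR adjusted p = 0.00206). Cdkn1a, the cyclin-dependent kinase inhibitor p21, went from 94.3, 86.2 and 87.1 CPM to 125, 121 and 104 CPM (0.39 ± 0.07, edgeR adjusted p = 0.0117). All MS275 libraries were higher for these 3 genes, and Cdkn1a was no longer called without vehicle library 2. Its region touched the far end, and with other annotated starts counted Cdkn1a was open in both lists. Fbp2, a muscle form of fructose-1,6-bisphosphatase, had 2.25, 2.54 and 2.42 CPM in vehicle and 4.77, 4.13 and 3.82 CPM in MS275, highest in the library with most muscle RNA. Fbp2 lost its call without vehicle library 1.

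Stab1, a scavenger receptor of endothelium and macrophages, led the 5 MS275-only genes that fell. It had 14.8, 15.6 and 14.7 CPM in vehicle and 10, 10.9 and 9.82 CPM in MS275, with no overlap (log2 fold change -0.55 ± 0.07 SE, edgeR adjusted p = 0.00373). Slc35d1, a nucleotide sugar transporter, fell by 0.46, Dhrs2, a dehydrogenase, by 0.55 and Aph1b, a subunit of gamma-secretase, by 0.21 on the log2 scale. With other annotated starts counted, Slc35d1 and Aph1b were open in both lists. Slc35d1, Dhrs2 and Aph1b each lost their call when any 1 vehicle library was left out, Dhrs2 and Aph1b also without MS275 library 3 and Aph1b without MS275 library 1. The remaining gene, Arg1 (arginase 1), was below the level set for naming and is given since the count is small, at 1.51, 1.28 and 0.984 CPM in vehicle and 0.773, 0.619 and 0.724 CPM in MS275. It lost its call without MS275 library 1.

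All 31 called genes of this class can be set out. The 26 that rose had log2 fold changes of 0.25 to 3.82 with a median of 0.86, 25 of them had groups apart, and 16 were highest in MS275 library 1. The largest were genes of striated muscle, named after their values were seen. Ckmt2, the sarcomeric mitochondrial creatine kinase, had 0.0875, 0.147 and 0.606 CPM in vehicle and 8.97, 0.437 and 1.71 CPM in MS275, and its groups overlapped. Xirp2 had 0.459, 0.229 and 0.555 CPM against 7.61, 1.15 and 1.51 CPM, and the giant muscle protein gene Ttn 0.7, 0.491 and 2.5 CPM against 16.8, 2.86 and 4.03 CPM. The neutrophil protease gene Elane had 0.437, 0.377 and 0.202 CPM against 4.64, 0.637 and 0.956 CPM. MS275 library 1 was by far the highest for these 4. Without it 20 of the 26 still passed, and Ckmt2, Ttn, Elane, Th, H2-T24 and Mir3098 did not. The part of muscle and blood cell content in the excess of rises was not tested.

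In the Vehicle-only class, Smyd1, a histone methyltransferase of striated muscle, had the smallest p among the named rises. It had 3.54, 2.85 and 4.04 CPM in vehicle and 8.38, 6.64 and 5.82 CPM in MS275, with no overlap (log2 fold change 1.01 ± 0.17 SE, edgeR adjusted p = 0.00905). Crip1, which encodes a small LIM domain protein, went from 17.6, 17.4 and 16.6 CPM to 31.8, 23.3 and 24.3 CPM (0.62 ± 0.11, edgeR adjusted p = 0.0112). H2-T23, a non-classical class I histocompatibility gene of a family with near-identical copies and so of uncertain count, went from 11.3, 11.3 and 16.1 CPM to 24.9, 19.3 and 23.2 CPM (0.80 ± 0.15, edgeR adjusted p = 0.0118). The orphan receptor gene Gpr146 rose by 0.52. Groups were apart for these 4 genes, and all 4 lost their calls without vehicle library 2, Crip1 and H2-T23 also without vehicle library 1 and Gpr146 without vehicle library 3.

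Hnrnph1, a splicing regulator, led the 13 falls of the Vehicle-only class. It had 116, 125 and 120 CPM in vehicle and 100, 101 and 100 CPM in MS275, all lower (log2 fold change -0.26 ± 0.04 SE, edgeR adjusted p = 0.00862). As its printed promoter showed, this gene is open in both lists at another annotated start, as were Clcn4-2, Zfp61 and Gpr146. Ttyh1, a membrane protein gene of satellite glia, went from 123, 130 and 132 CPM to 93.7, 103 and 108 CPM (-0.34 ± 0.06, edgeR adjusted p = 0.00915). The chloride/proton exchanger gene Clcn4-2 fell by 0.26 and the zinc-finger gene Zfp61 by 0.65 on the log2 scale. Hnrnph1, Ttyh1, Clcn4-2 and Zfp61 were no longer called without vehicle library 2, nor Clcn4-2 without vehicle library 1 or Zfp61 without vehicle library 3. All 36 called genes of the class had groups apart. The 23 that rose ran from 0.18 to 3.23 with a median of 0.80, 16 were highest in MS275 library 1, and none was on the muscle, neutrophil, erythroid or adipocyte list. Smyd1, a striated muscle gene outside these lists, was also highest in MS275 library 1. The part of muscle content in the rises of this class was not tested.

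Genes with no region at their ends in either list included some of the smallest p of all. Ly86, which encodes MD-1, a partner of a Toll-like receptor homologue on immune cells, had 121, 129 and 135 CPM in vehicle and 215, 244 and 223 CPM in MS275 (log2 fold change 0.83 ± 0.06 SE, edgeR adjusted p = 0.000576). Calcb, the beta form of calcitonin gene-related peptide and a product of nociceptors, had 131, 123 and 130 CPM in vehicle and 206, 194 and 207 CPM in MS275 (0.66 ± 0.05, edgeR adjusted p = 0.000576). Both genes were separated without overlap. Calca, its near-identical paralogue, was open in both lists and rose from 1350, 1430 and 1370 CPM to 1540, 1630 and 1580 CPM, by 0.19. Reads could be shared between these 2 genes, and Calca lost its call without any 1 vehicle library or MS275 library 3. C3, the central complement component, went from 7.52, 6.72 and 8.81 CPM to 27.7, 17.6 and 16.8 CPM (1.44 ± 0.19, edgeR adjusted p = 0.00357).

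Falls without a listed region at the ends included Zfp235, a zinc-finger gene, at 5.62, 5.80 and 6.18 CPM in vehicle and 3.07, 3.39 and 3.39 CPM in MS275 (log2 fold change -0.84 ± 0.11 SE, edgeR adjusted p = 0.00356). The deubiquitinase gene Usp42 fell by 0.71 and the RNA polymerase I factor gene Ubtf by 0.29 on the log2 scale. Schip1, which encodes an axon initial segment protein, rose by 0.37 and overlaps a longer fusion gene, so its outer ends are not the only starts. The 7 neither-list genes of this and the preceding paragraph all had a region in both lists somewhere within the gene or 1000 bp of it. None of the 7 was thus a gene without listed open chromatin. As with the genes above, overlap with other annotated genes makes the counts of Fstl3, Stab1, Slc35d1, Gpr146, Ttyh1, Clcn4-2, Zfp61, C3 and Usp42 uncertain.

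**Figure D5:**
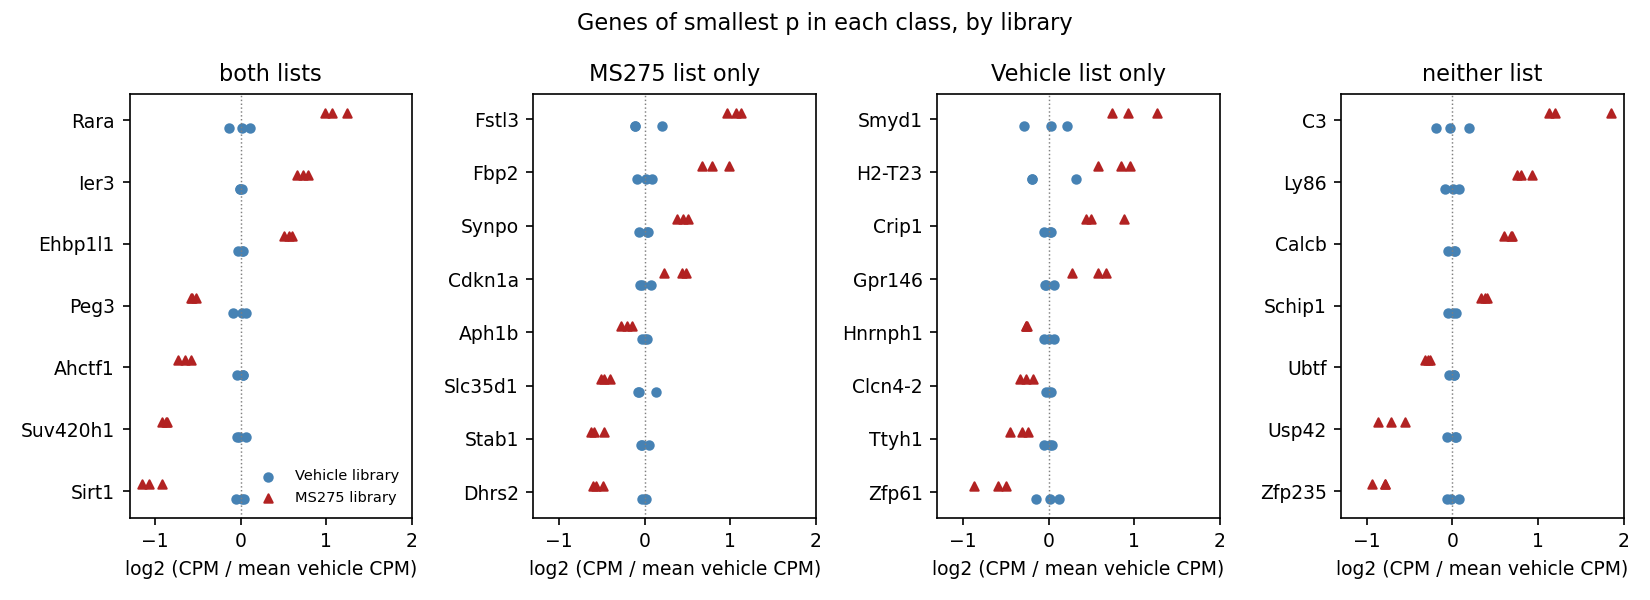
Points give log2 of CPM over the mean vehicle CPM in each library (circles vehicle, triangles MS275) for up to 4 genes of smallest p per direction in each class. The groups do not overlap in any of the 30 genes shown, which the naming rule required, and rises and falls occur in all 4 classes.

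Lists of genes with known roles are set beside the shares over all genes, of which 85.5% of those classed were open in both lists and, of those tested, 5.1% rose and 5.89% fell. All 18 classed genes of the class I deacetylases and their co-repressors, all 12 classed histone acetyltransferases and all 13 immediate early genes were open in both lists. Of 20 class I deacetylase and co-repressor genes tested, 3 rose and 2 fell, with a median log2 fold change of 0.014. The naming rule took the 2 of smallest p, which were the falls, and the 3 rises are not named. Sin3a, a co-repressor scaffold, went from 26.5, 26.5 and 24.9 CPM to 18.7, 18.3 and 18.7 CPM. Rcor3 went from 25.6, 25.2 and 25.3 CPM to 20.1, 21.9 and 19.6 CPM. Rcor3 lost its call without any 1 vehicle library or MS275 library 3. The drug's targets did not pass the test: Hdac1 had 26.0, 26.0 and 27.8 CPM in vehicle and 26.0, 27.8 and 27.2 CPM in MS275, and log2 fold changes were 0.02 for Hdac1, 0.04 for Hdac2 and 0.02 for Hdac3 (edgeR adjusted p = 0.835, 0.492 and 0.825). Of 13 acetyltransferases tested, 4 fell and none rose, beside 5.89% and 5.1% of all genes, with Ep300 at 31.2, 30.3 and 32.1 CPM in vehicle and 20.3, 20.1 and 17.1 CPM in MS275. Of 18 bromodomain readers, which bind acetylated lysine, 10 fell and none rose, beside the same shares of all genes, with a median of -0.23 against 0.002 over all classed genes, and 17 were open in both lists. Brd1 went from 40.0, 39.8 and 40.4 CPM to 30.3, 29.1 and 30.7 CPM.

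Immune, endothelial and mural lists were read against the 5.1% of all genes that rose and the 85.5% open in both lists. Of 14 antigen presentation genes 7 rose and none fell, with 13 open in both lists and Cd74, the invariant chain, in the Vehicle-only class. H2-K1, a class I histocompatibility gene, went from 98.6, 95.1 and 103 CPM to 141, 146 and 163 CPM. Of 21 interferon-response genes 5 rose and none fell, and 16 were open in both lists. Rsad2 (viperin) went from 8.29, 8.53 and 12.8 CPM to 26.2, 21.9 and 18 CPM. Of 11 macrophage markers tested none passed in either direction, and 4 were open in both lists, 4 in the Vehicle list only, 1 in the MS275 list only and 2 in neither. Of 14 endothelial markers 6 rose and none fell, 11 were open in both lists, and their sum was 210.7 to 233.3 CPM in vehicle and 257.0 to 287.8 CPM in MS275. Of 10 mural cell markers 4 rose and none fell, 8 were open in both lists, and their sum was 496.7 to 532.7 CPM in vehicle and 589.4 to 647.7 CPM in MS275. Both sums were higher in every MS275 library than in any vehicle library, and their part in the class differences was not tested.

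For neuronal lists the shares of all genes are again 85.5% open in both lists, 5.1% risen and 5.89% fallen. Of 18 sensory neuron markers 17 were open in both lists, the exception being the sodium channel gene Scn10a in the Vehicle-only class, and 2 rose. Of 18 nociceptor genes 13 were open in both lists, and 5 rose with none fallen. Of 18 regeneration-associated genes tested 2 rose and 1 fell, and 15 were open in both lists. Among the others, Arg1 was in the MS275-only class, Sprr1a in the Vehicle-only class and Nts, which encodes neurotensin, in neither. Nts went from 6.30, 5.59 and 4.69 CPM to 7.17, 8.04 and 12.4 CPM and lost its call when any of the vehicle libraries or MS275 library 3 was left out.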

How the data were processed

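RNA was measured by poly(A) RNA-seq in 3 MS275 and 3 vehicle libraries and chromatin by ATAC-seq. The authors deposited whole-number read counts per gene symbol. STAR 2.7.0 and the mm10 build are named in the submitters' processing notes, and how reads were counted, with or without strand, was not given in the sources used here. The authors deposited 1 list of ATAC regions per treatment, with a score, a fold enrichment ratio, a -log10 p and q and a summit offset for each entry, and the peak caller was likewise not given in the sources used here. The lists held 246602 (MS275) and 277369 (Vehicle) entries, and 33.1% and 23.6% of these had a q above 0.05. Overlapping entries were merged to 161788 and 177906 regions.

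Of the reads, 18.89% to 20.56% lay in 5 rows that name no gene and were left out. Gene symbols were matched to RefSeq GRCm38.p6, the assembly of mm10, for 31484 of 44345 genes, 1940 of them by synonym. Counts were tested with edgeR 4.0.16 in R 4.3.3 (TMM, filterByExpr, glmQLFTest, two-sided, Benjamini-Hochberg over all 16819 genes, called at 0.05), after testing on simulated data, with DESeq2 1.42.0 as an alternative. Left out of the classes were 870 tested genes without coordinates and 569 not on autosomes. A region counted when it shared at least 1 bp with the 1000 bp at either side of a gene end. Library values are medians over genes of log2 CPM (prior count 2) minus the gene's mean, the class minus the reference class, averaged over level bins with at least 20 genes of both, and compared with an exact permutation test over the 6 libraries, for which 0.1 is the smallest p. Named genes had an adjusted p under 0.05, a mean log2 CPM of at least 1 and groups apart, the 4 of smallest p per class and direction, with up to 2 from each of 22 gene lists and Hdac1, Hdac2 and Hdac3. Members, lists and settings were chosen with earlier results of these data known. Nothing in the labels says that replicate numbers pair the libraries, and they were not treated as pairs in the main test. Of the genes that met the naming rule, 2 are not reported here.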

Additional observations from a re-analysis of the deposited data

How the results depend on the processing

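Over all genes, the 3 less open classes stayed above genes open in both lists in all 34 other settings, at 0.020 to 0.196 (MS275-only), 0.043 to 0.167 (Vehicle-only) and 0.017 to 0.081 (neither). Settings that changed only the level bins or added the replicate block could not move these values, so their agreement was fixed in advance. Within level bins the MS275-only difference turned to -0.023 with no filter, -0.011 with a 2500 bp window and -0.029 with bins crossed with 3 classes of gene span, and ran from -0.014 to 0.058 when 1 library was left out, negative without MS275 library 1 or 2. The Vehicle-only difference turned to -0.0025 with no filter and ran from 0.045 to 0.066 when 1 library was left out. The neither-list difference turned to 0.0033 (500 bp), 0.056 (gene start only), 0.064 (-log10 q of at least 5), 0.013 (level bins of the mean of all libraries), 0.034 (level bins of MS275 CPM), 0.042 (CPM per kb of gene span), 0.0058 (level bins from vehicle library 2), 0.040 (bins crossed with 2 classes of promoter CpG, only genes with a promoter entry), 0.0052 (mean over genes), 0.025 (genes with a protein) and 0.0028 (any annotated start, added after seeing the data), and ran from -0.046 to 0.0025 when 1 library was left out. MS275-only minus Vehicle-only turned to 0.0095 (500 bp), 0.067 (-log10 q of at least 5) and 0.0033 (genes with a protein) within level bins, and to 0.0035 (500 bp), 0.028 (whole gene) and 0.040 (-log10 q of at least 5) over all genes. The cause was not tested in any of these.

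Leaving out 1 library gave 127 to 1388 risen and 134 to 1375 fallen genes, and Hdac3 ran from -0.026 (without MS275 library 3) to 0.053. DESeq2 called 1146 and 1138. With the replicate number as a block 981 rose and 1107 fell, and of the named genes only Nts lost its call. The class differences cannot move under a block in this balanced design (0.0572 for the Vehicle-only class), and the exact permutation p of that class became 0.25, the smallest possible with the block. Same-numbered libraries correlated at 0.019, 0.111 and -0.061 across genes, and differently numbered ones at -0.149 to 0.113. With 3 libraries per treatment these values cannot decide whether the numbers pair the libraries. Depth limits the lowest level bin, at vehicle levels of up to 0.635 CPM.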
